A study of Danio rerio with 12 samples.

Results

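Livers of female and male zebrafish exposed to bisphenol AF (BPAF) were compared with each other, library by library and gene by gene. BPAF is a fluorinated analogue of bisphenol A. The fish were adult wild-type animals of the TU strain, aged 4 months, and they spent 28 days in water that held BPAF at 10 µg/L, and their labels give no solvent level. The comparison rests on 3 RNA-seq libraries from female BPAF livers and 3 from male BPAF livers, among the 12 libraries of the series. Control livers, 3 libraries each from female DMSO and male DMSO fish kept with 0.0001% dimethyl sulfoxide (DMSO) over the same 28 days, gave the sex difference without BPAF. The water of every group was at 28 °C, and each day had 14 h light, then 10 h darkness. The genes described are the 9932 of 32520 listed genes that reached 1 TPM, a relative transcript abundance corrected for gene length and library size, in at least 3 of the 6 BPAF libraries. Of these, 5889 reached 1 TPM in all 6 libraries. A further 945 were under 1 TPM in every female library and entered through the 3 male libraries, and 51 entered through the females in the same way. At the edge of the rule, 1506 genes reached 1 TPM in exactly 3 of the 6 libraries and 1491 missed it with exactly 2. Nothing in the labels tells if a group's 3 libraries are from different fish, so the p-values describe the spread among the libraries alone, and that spread may be technical.

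The liver of an egg-laying female fish makes vitellogenins, the precursors of egg yolk, and releases them into the blood for uptake by the ovary. Estradiol from the ovary drives this synthesis through nuclear estrogen receptors in hepatocytes, and the receptor gene esr1 is itself induced by estrogen. A male liver carries the same genes and normally keeps them almost silent, so vitellogenin in males is widely used as a sign of exposure to estrogenic compounds.

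Hepatocyte genes were abundant in both sexes. The 19 hepatocyte markers, among them fabp10a, tfa and apoa2, were all tested and summed to 7.76 to 10.5% of all TPM in female BPAF livers and 23.5 to 30.3% in male BPAF livers. The vitellogenins alone took 19.45, 25.66 and 22.45% of all TPM in the female BPAF libraries (mean 22.5 ± 3.11%, SD, n = 3), against a mean of 0.00324 ± 0.00191% in the male BPAF libraries (SD, n = 3). The groups were far apart, and the exact 2-sided permutation test gave p = 0.1, the smallest p that the 20 splits of 3 against 3 allow. Female BPAF livers listed 9217, 7506 and 7007 genes at 1 TPM or more, and male BPAF livers listed 12313, 10198 and 10373. These groups did not overlap either (exact permutation p = 0.1). The sequencing depth behind these numbers is unknown, as TPM do not carry it. Because TPM share a fixed total, the yolk transcripts of the females lower the TPM of their other genes. Libraries were therefore scaled by a trimmed mean of gene ratios that left out the vitellogenins. This scaling centres the typical gene of each library, so it removes more than the vitellogenin share. The median difference over all genes was -0.12 with it, and -0.59 when the vitellogenins were only removed and the rest rescaled. TPM given below are the deposited values, and differences are female minus male on the log2(scaled TPM + 1) scale, which understates the change of low genes.

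On this scale 604 of the 9932 genes differed between the sexes of exposed fish (6.08%), by limma, with p-values adjusted after Benjamini and Hochberg and a threshold of 0.05. Expression was higher in females for 283 genes (2.85% of those tested) and lower in females for 321 genes (3.23%). Of the 321, 173 were among the genes that had entered through the male libraries with every female library under 1 TPM, and of the 283, 34 had entered through the females in that way. The filter thus sets part of these counts and of their split. Every one of the 604 had female and male libraries that did not overlap, which held for 31.7% of all tested genes. The direction split depended on the scaling. The median difference over all genes was -0.12 with the main scaling, where 46.9% of the called genes were higher in females. With the TPM as deposited, the median was -0.83 and 187 genes were higher and 4063 lower, so that 4.40% of the calls were higher. Removing the vitellogenins and rescaling the rest gave a median of -0.59, with 208 higher and 1728 lower (10.7% higher). Quantile normalization gave a median of -0.01, with 216 higher and 259 lower (45.5% higher). Called in the same direction under all 4 scalings were 107 genes higher and 214 genes lower in females. Counts of list members given below for another scaling are to be read beside the all-gene counts of that scaling.

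The number of calls also depended on single libraries. Without female BPAF replicate 3 it was 36 higher and 23 lower, without female BPAF replicate 2 it was 72 and 81, and without male BPAF replicate 2 it was 65 and 93. Without male BPAF replicate 1 it was 167 and 179, without male BPAF replicate 3 it was 206 and 180, and without female BPAF replicate 1 it was 333 and 310. There were 33 genes higher and 19 genes lower in females that passed with each library left out in turn, and the vitellogenins, esr1, nots, rtn1a, cyp2k22, tdo2b and nqo1 were among them. Every other called gene lost its call without at least 1 library. A further count took 86 called genes: those named by rule and others that came next in order of their difference. Of these, 73 kept the call without female BPAF replicate 1, and 63, 62 and 45 without male BPAF replicates 3, 1 and 2. Without female BPAF replicate 2 it was 37, and without female BPAF replicate 3 it was 22.

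**Figure D1:**
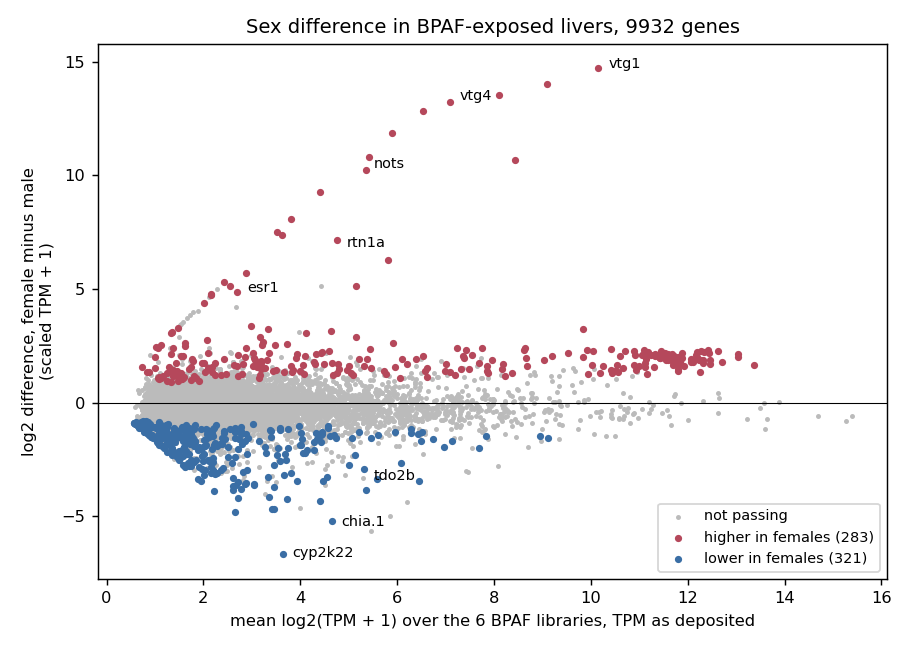
Log2 difference of female minus male BPAF livers (vertical axis, scaled TPM + 1) against the mean log2(TPM + 1) of the 6 libraries (horizontal axis), 1 point per tested gene, with the 283 genes higher and the 321 genes lower in females coloured. The 7 vitellogenins lie at differences of 10.68 to 14.71, with CABZ01042594.1 among them and nots just below, the dense group of abundant coloured genes near 2 holds the ribosomal protein genes, and cyp2k22 is the lowest coloured point.

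The yolk programme was the largest difference between the sexes. All 7 vitellogenin genes were higher in female BPAF livers, with differences of 10.68 (vtg5) to 14.71 (vtg1). Near-identical vitellogenin copies share reads, so the value of each single copy is uncertain, while their sum depends less on how reads were divided among them. The most abundant, vtg1, stood at 122514, 149212 and 140287 TPM in female BPAF livers, against 6.47, 8.61 and 10.99 TPM in male BPAF livers. The lowest female library was thus far above the highest male library. The difference was 14.71 ± 0.35 (SE; limma adjusted p = 1.43e-06). The copies vtg3, vtg4, vtg6 and vtg7 were under 1 TPM in each male BPAF library. By contrast vtg5 had 10168, 12674 and 8957 TPM in female BPAF livers against 1.53, 31.62 and 16.7 TPM in male BPAF livers. Male BPAF replicate 1 was the lowest, and the difference was 10.68 ± 0.88 (adjusted p = 0.00133). The unannotated gene CABZ01042594.1 (ENSDARG00000103451) followed the same order, with 18191, 24522 and 26721 TPM in female BPAF livers against 2.52, 1.61 and 2.93 TPM in male BPAF livers. Its difference was 13.56 ± 0.33 (adjusted p = 1.43e-06), and it was not counted in the vitellogenin share.

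The estrogen receptor gene esr1 was high in females. It had 28.43, 30.64 and 23.02 TPM in female BPAF livers and 0.55, 0.52 and 0.42 TPM in male BPAF livers. The 2 groups were tight and did not overlap, and the difference was 4.85 ± 0.23 (adjusted p = 3.84e-05). The second estrogen receptor, esr2b, had 20.51, 18.37 and 16.28 TPM in female BPAF livers against 14.79, 20 and 6.97 TPM in male BPAF livers, and did not pass the test (difference 1.39, 95% interval 0.56 to 2.22, adjusted p = 0.0646). The third receptor, esr2a, was at 1.04, 0.52 and 0.41 TPM in female BPAF livers and 1.16, 0.49 and 0.37 TPM in male BPAF livers, under the rule, and was not tested. The androgen receptor gene ar was low in both sexes, with 2.1, 1.63 and 3.74 TPM in female BPAF livers and 1.23, 0.53 and 0.79 TPM in male BPAF livers. It passed with a difference of 1.45 ± 0.30 (adjusted p = 0.0350), but not without any 1 of male BPAF replicates 1, 2 and 3 or female BPAF replicates 2 and 3 (adjusted p from 0.0592 to 0.117).

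Further genes were higher in females. Nothepsin (nots), a protease known as a female-specific liver product in fish, had 859, 1372 and 1326 TPM in female BPAF livers against 0.14, 0.68 and 0.61 TPM in male BPAF livers. Its difference of 10.23 ± 0.34 was just below those of the vitellogenins (adjusted p = 3.74e-06). The gene fam20cl, a relative of the secretory-pathway kinase gene FAM20C, had 181, 230 and 176 TPM in female BPAF livers and was listed at 0 in all 3 male BPAF livers, so no fold is given (adjusted p = 2.97e-06). The related fam20a, chosen after its values were seen, was also higher in females. It had 23.03, 21.87 and 22.22 TPM in female BPAF livers against 12.3, 6.8 and 8.32 TPM in male BPAF livers (difference 2.14 ± 0.24, adjusted p = 0.00593). The reticulon gene rtn1a, whose protein shapes the endoplasmic reticulum, had 192, 331 and 231 TPM in female BPAF livers against 3.05, 1.80 and 1.31 TPM in male BPAF livers. All female libraries again exceeded all male libraries (difference 7.17 ± 0.33, adjusted p = 2.91e-05). Of the 21 tested genes in the estrogen and androgen signalling list, 4 were higher in females (esr1, ar, nots and fam20cl) and 2 were lower (hsd17b3 and hsd11b2). The all-gene shares were 2.85% higher and 3.23% lower, and the median difference of the list was 0.36. The list holds nots and fam20cl beside receptor and steroid enzyme genes, and its members were chosen with earlier results of these data known. Its direction depended on the scaling, with 4 higher and 8 lower and a median of -0.30 with the TPM as deposited, and 4 higher and 4 lower with vitellogenins removed.

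**Figure D2:**
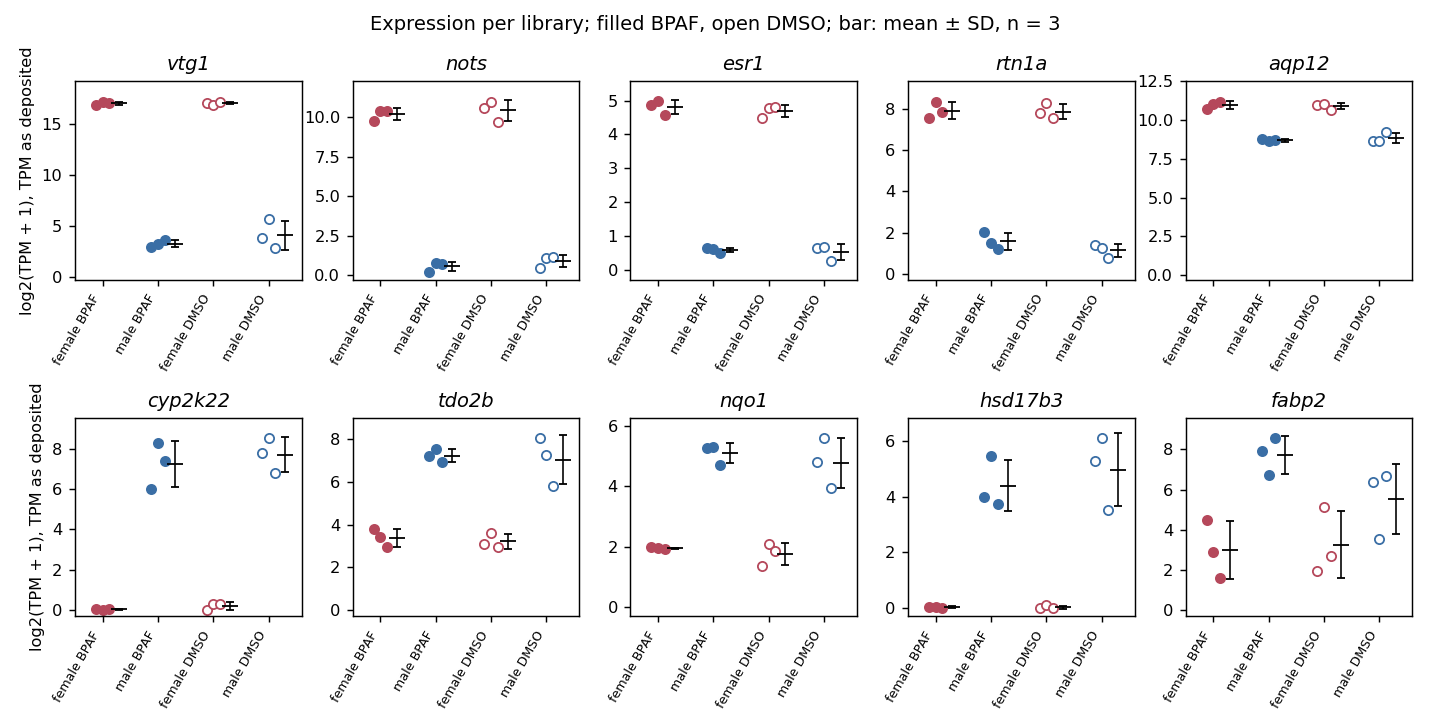
Expression of 10 genes as log2(TPM + 1) of the deposited TPM (vertical axes) in female and male BPAF livers (filled points) and female and male DMSO livers (open points), 1 point per library, with mean and SD (n = 3) beside them. vtg1, nots, esr1, rtn1a and aqp12 sit high in both female groups, cyp2k22, tdo2b, nqo1 and hsd17b3 sit high in both male groups, and fabp2 is widely spread in DMSO livers.

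Single steroid and drug metabolism genes differed strongly, in both directions. Cytochrome P450 enzymes oxidise steroids, lipids and foreign compounds, and of 47 tested P450 genes 3 were higher (cyp2k6, cyp2aa7 and cyp2u1) and 2 were lower in females (cyp2k22 and cyp3a65), beside all-gene shares of 2.85 and 3.23%. The list median was -0.01, against -0.12 for all genes. The counts were 2 higher and 18 lower with the TPM as deposited, 3 and 7 with vitellogenins removed, and 1 and 1 without male BPAF replicate 2, female BPAF replicate 2 or female BPAF replicate 3. Without male BPAF replicate 1 they were 1 and 3. The identifier ENSDARG00000098995, named cyp2k6, had 145, 152 and 99.6 TPM in female BPAF livers against 0.33, 0.12 and 0.07 TPM in male BPAF livers. It was almost silent in males, with a difference of 7.36 ± 0.25 (adjusted p = 3.74e-06). A second identifier with the symbol cyp2k6, ENSDARG00000009874, went the other way in its levels: it was listed at 0 in the 3 female BPAF libraries and at 1.65, 35.22 and 7.70 TPM in the male BPAF libraries, and it did not pass (adjusted p = 0.0892). Related cyp2k copies can share reads, so their division is uncertain. The family member cyp2k22 had 0.05, 0 and 0.05 TPM in female BPAF livers and 63.3, 310 and 167 TPM in male BPAF livers. Its female libraries were all near 0, and the difference was -6.69 ± 0.63 (adjusted p = 0.00328).

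The drug-metabolising cyp3a65 had 19.68, 25.27 and 12.48 TPM in female BPAF livers and 183, 171 and 403 TPM in male BPAF livers. The groups did not overlap, and the difference was -2.65 ± 0.47 (adjusted p = 0.0235). That call was lost without male BPAF replicate 2 (0.0613), female BPAF replicate 2 (0.0553) or female BPAF replicate 3 (0.110). The dioxin-inducible cyp1a had 69.1, 50.5 and 66.9 TPM in female BPAF livers against 158, 139 and 126 TPM in male BPAF livers. After scaling its difference was -0.22 (95% interval -0.79 to 0.36) and did not pass (adjusted p = 0.629), whereas with the TPM as deposited it did (adjusted p = 0.0133). The steroid dehydrogenase gene hsd17b3, whose mammalian counterpart completes testosterone synthesis, had 0.04, 0.03 and 0 TPM in female BPAF livers against 15.1, 42.6 and 12.3 TPM in male BPAF livers. It was near 0 in every female library (difference -3.90 ± 0.48, adjusted p = 0.00884, and 0.0561 without female BPAF replicate 3). The gene hsd11b2, which inactivates cortisol and takes part in making fish androgens, had 7.84, 1.88 and 2.3 TPM in female BPAF livers against 41.7, 32.3 and 35.6 TPM in male BPAF livers (difference -2.26 ± 0.40, adjusted p = 0.0225).

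Conjugation enzymes, which attach glucuronic acid, sulfate or glutathione, were mostly on the lower side in females. Of 53 tested members 8 were lower and 1 was higher, beside all-gene shares of 3.23 and 2.85%. The median difference was -0.63, against -0.12 for all genes. The lower ones were ugt5a2, ugt5b4, ugt5g1, sult1st4, sult1st5, gstp2, gstm.3 and gstt1b. The glutathione transferase gene gstt1b had 8.58, 4.52 and 3.57 TPM in female BPAF livers and 38.2, 40.6 and 43.4 TPM in male BPAF livers, so that the groups stood well apart (difference -1.86 ± 0.32, adjusted p = 0.0210). The exception was the sulfotransferase gene sult3st3 (ENSDARG00000042920), with 30.5, 44.1 and 8.97 TPM in female BPAF livers against 3.80, 10.24 and 5.90 TPM in male BPAF livers. Its deposited values overlapped, its scaled values did not, and it passed narrowly (difference 2.6 ± 0.61, adjusted p = 0.0495). The number of lower members was 36 with the TPM as deposited, 23 with vitellogenins removed and 3 with quantile normalization. Leaving out 1 library gave 5 lower without female BPAF replicate 1, 3 without male BPAF replicate 1, 1 without female BPAF replicate 2, male BPAF replicate 2 or male BPAF replicate 3, and 0 without female BPAF replicate 3. Among antioxidant genes nqo1, the quinone reductase, was the clearest. It had 2.94, 2.85 and 2.80 TPM in female BPAF livers against 37.6, 38.3 and 25.3 TPM in male BPAF livers, with tight and separate groups (difference -2.30 ± 0.25, adjusted p = 0.00593). Its activator nfe2l2a was also lower in females (-1.15 ± 0.24, adjusted p = 0.0357), the peroxiredoxin prdx4 of the endoplasmic reticulum was higher (2.05 ± 0.35, adjusted p = 0.0207), and the other 27 of 30 members did not pass.

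Most ribosomal protein genes and some translation factors were higher in females. Cytosolic ribosomal proteins, the structural parts of the ribosome, were tested with 85 genes, of which 78 were higher, 0 lower, and 7 did not pass. The all-gene shares were 2.85% higher and 3.23% lower. Their median difference was 1.92 with the main scaling, 0.95 with the TPM as deposited, 1.31 with vitellogenins removed and 0.55 with quantile normalization. In female BPAF livers the ribosomal protein genes summed to 33.7, 36.6 and 38.1% of all TPM, against 18.4, 15.8 and 22.5% in male BPAF livers. Even the highest male library stayed below every female library. Outside the vitellogenins the share was 41.9, 49.2 and 49.2% in female BPAF livers and 18.4, 15.8 and 22.5% in male BPAF livers. As an example, rps18 had 3027, 3672 and 3430 TPM in female BPAF livers and 1891, 1269 and 1593 TPM in male BPAF livers, again without overlap (difference 2.08 ± 0.26, adjusted p = 0.0103). The count of higher members was 70 (with 3 lower) with the TPM as deposited, 76 with vitellogenins removed and 15 with quantile normalization, where the called rps21, rps24 and rpl29 turned to differences of -0.14, -0.03 and -0.10. Without a filter on low genes it was 0, and it was 1 for translation factors, 3 for secretory genes, and 0 for the lower members among conjugation enzymes, apolipoproteins and intestine markers. For ribosomal proteins it was 77 without female BPAF replicate 1, 75 without male BPAF replicate 3, 64 without male BPAF replicate 1, 9 without male BPAF replicate 2, 5 without female BPAF replicate 2 and 0 without female BPAF replicate 3. In the last case rps18 had an adjusted p of 0.0669.

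Of 59 tested translation factors, which load and move ribosomes along messages, 20 were higher and 0 lower in females (median 0.68). The all-gene shares were 2.85% higher and 3.23% lower, and the all-gene median was -0.12. However, 6 were higher and 9 lower with the TPM as deposited (median -0.21), and 10 higher and 1 lower with vitellogenins removed. The elongation factor eef1g had 1510, 1773 and 1687 TPM in female BPAF livers and 842, 502 and 696 TPM in male BPAF livers. Each female library had more than each male library (difference 2.28 ± 0.27, adjusted p = 0.00791). The count was 19 without male BPAF replicate 3, 13 without female BPAF replicate 1, 9 without male BPAF replicate 1, 5 without male BPAF replicate 2, 3 without female BPAF replicate 2 and 0 without female BPAF replicate 3.

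Some secretory pathway genes were higher in females. Of 69 tested genes of folding and secretion in the endoplasmic reticulum 9 were higher and 0 lower in females (median 0.58), beside all-gene shares of 2.85 and 3.23%. With the TPM as deposited 5 were higher and 3 lower (median -0.26), and with vitellogenins removed 5 were higher and 1 lower (median 0.02). The 9 higher with the main scaling were the translocon genes sec61a1 and sec61g, the translocon-associated ssr1, ssr2, ssr3 and ssr4, the glycosylation genes rpn2 and stt3a, and xbp1, a regulator of secretory capacity. The channel gene sec61a1 had 370, 363 and 343 TPM in female BPAF livers against 190, 92.9 and 123 TPM in male BPAF livers. It was uniform across females and lower in each male library (difference 2.42 ± 0.26, adjusted p = 0.00507). Leaving out 1 library gave 12 higher members without male BPAF replicate 1, 8 without female BPAF replicate 1, 6 without male BPAF replicate 3, 3 without male BPAF replicate 2 or female BPAF replicate 2, and 1 without female BPAF replicate 3. From outside the lists, chosen after its values were seen, the calcium-binding rcn3 of the same compartment had 133, 201 and 132 TPM in female BPAF livers and 14.63, 5.33 and 4.58 TPM in male BPAF livers (difference 5.13 ± 0.36, adjusted p = 0.000512).

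**Figure D3:**
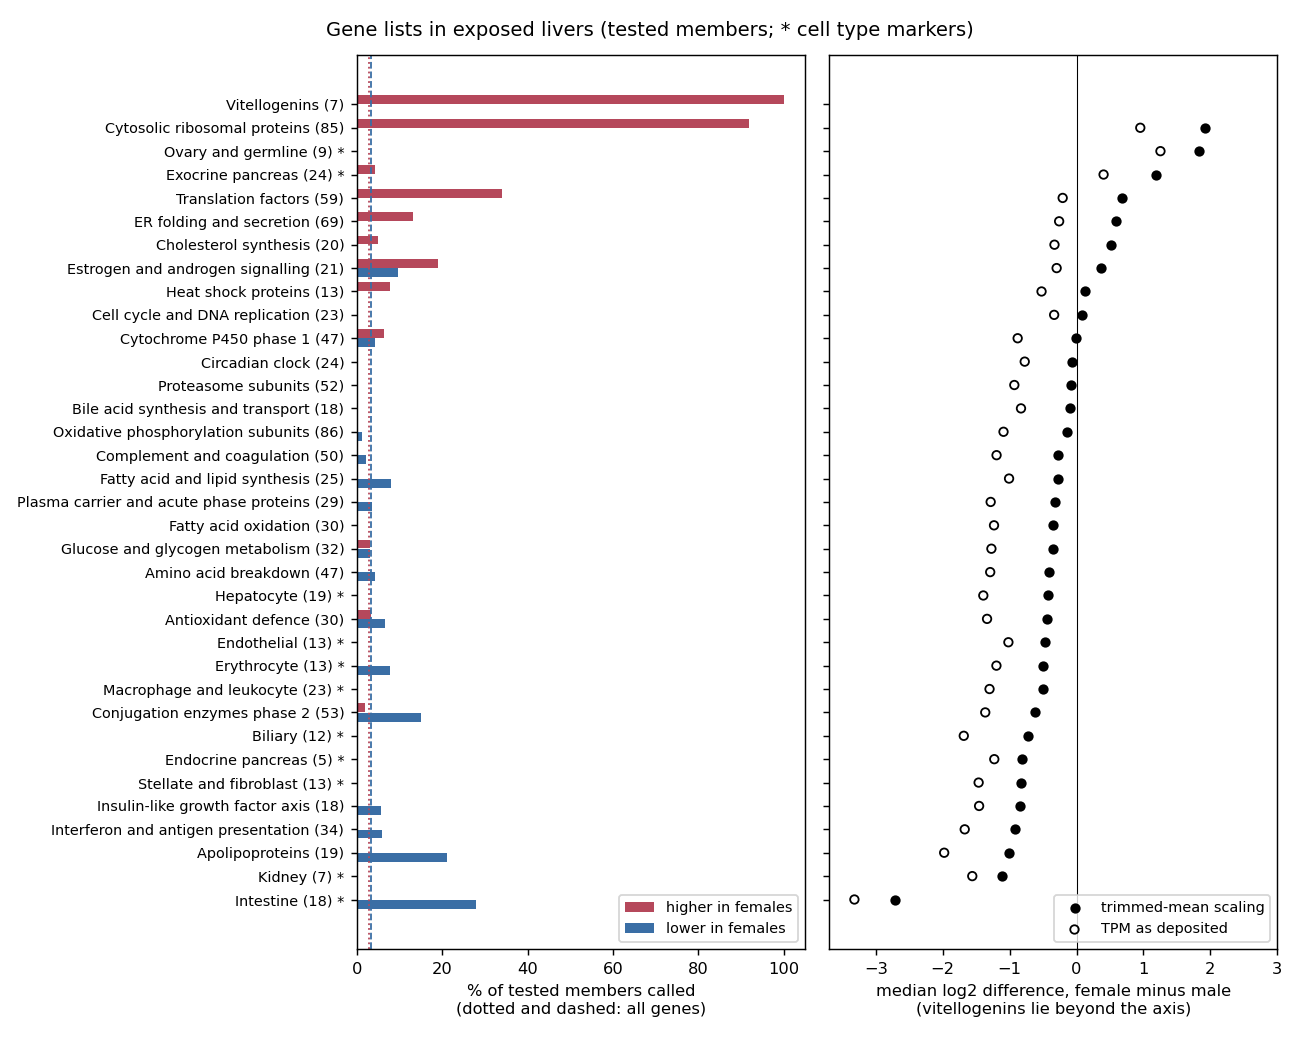
Left, percentage of tested members of each gene list drawn that were higher or lower in female BPAF livers, with the share over all tested genes as dotted and dashed lines. Right, the median log2 difference of female minus male of each list with the main scaling (filled) and with the TPM as deposited (open). Vitellogenins, ribosomal proteins and translation factors have the largest shares higher in females, and, among the lists drawn, which had at least 5 tested members, intestine markers and apolipoproteins have the largest shares lower; every open point drawn is left of its filled point, and the vitellogenins lie beyond that axis.

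Lipid carriers took less of the female transcriptome. Apolipoproteins summed to 6.09, 4 and 4.55% of all TPM in female BPAF livers, against 19.1, 17.6 and 13.2% in male BPAF livers. No female library came near the lowest male library. After scaling 4 of the 19 tested genes were lower and 0 higher in females (median -1.01), beside all-gene shares of 3.23 and 2.85%. The 4 were apoa4a, apof and both identifiers named apoa4b.2, whose copies may share reads. The low-abundance apof, a lipid transfer inhibitor in mammals, had 4, 3.36 and 2.81 TPM in female BPAF livers against 22.9, 37.9 and 31.7 TPM in male BPAF livers. Its groups were separate (difference -1.99 ± 0.34, adjusted p = 0.0213). The count of lower members was 18 with the TPM as deposited, 17 with vitellogenins removed and 9 with quantile normalization. It was 6 without female BPAF replicate 1, 2 without male BPAF replicate 1, 1 without male BPAF replicate 2 or 3 and 0 without female BPAF replicate 2 or 3. The abundant apoa2 had 27114, 15828 and 21978 TPM in female BPAF livers against 78367, 77185 and 63682 TPM in male BPAF livers. It did not pass with the main scaling (difference -0.81, 95% interval -1.39 to -0.24, limma adjusted p = 0.0958). With the other scalings it passed as lower in females. The adjusted p was 0.00248 with the TPM as deposited, 0.00655 with vitellogenins removed and 0.0204 with quantile normalization.

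Intermediary metabolism gave few calls after scaling, to be read beside the all-gene shares of 2.85% higher and 3.23% lower. With the TPM as deposited many more members were lower in females, beside 4063 of all 9932 tested genes. The counts were 33 of 47 amino acid breakdown genes, 8 of 25 lipid synthesis genes, 24 of 32 glucose genes and 24 of 30 antioxidant genes. They were also 64 of 86 oxidative phosphorylation subunits, 32 of 50 complement genes and 20 of 29 plasma proteins. Of insulin-like growth factor genes 14 of 18 were lower, and of interferon genes 27 of 34. With vitellogenins removed 18, 3, 12, 13, 22, 10, 10, 5 and 12 members were lower, in the same order, beside 1728 of all tested genes. With the main scaling, of 47 amino acid breakdown genes 2 were lower in females, tdo2b and oat. Tryptophan dioxygenase tdo2b, which opens the kynurenine route, had 12.82, 9.74 and 6.80 TPM in female BPAF livers against 147, 186 and 121 TPM in male BPAF livers. The groups were separated by a wide gap (difference -2.91 ± 0.31, adjusted p = 0.00501), and the call held without each library in turn. Of 25 lipid synthesis genes 2 were lower, dgat1a and the malic enzyme me1, which supplies NADPH. The me1 libraries had 1.5, 2.37 and 0.79 TPM in female BPAF livers against 144, 18.8 and 23.3 TPM in male BPAF livers. Male BPAF replicate 1 was highest, and the groups did not overlap (difference -3.29 ± 0.62, adjusted p = 0.0263). Fatty acid synthase fasn (1.51, adjusted p = 0.156), the desaturase scd (2.17, adjusted p = 0.234) and the cholesterol enzyme hmgcra (1.18, adjusted p = 0.362) did not pass.

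Of 20 cholesterol genes 1 was higher, the regulator insig1 (1.70 ± 0.30, adjusted p = 0.0233), but its call was lost with the TPM as deposited (0.0891) and with vitellogenins removed (0.0573). The list median was 0.52 with the main scaling and -0.33 with the TPM as deposited, where 0 were higher and 3 lower. Also, of 32 glucose and glycogen genes, the glucokinase gene gck was higher (2.03 ± 0.47, adjusted p = 0.0488) and the pyruvate carboxylase gene pcxb was lower (-1.34 ± 0.28, adjusted p = 0.0353). The gluconeogenic pck1 did not pass (-3.18, 95% interval -5.48 to -0.89, adjusted p = 0.0999). With limma, 0 of 30 fatty acid oxidation genes, 0 of 18 bile acid genes, 0 of 24 clock genes, 0 of 52 proteasome subunits and 0 of 23 cell cycle genes passed with the main scaling. At an unadjusted p under 0.05 these lists had 6, 3, 3, 5 and 1 members lower in females, in the same order. In addition 1 fatty acid oxidation gene was higher. Over all tested genes 2576 of 9932 reached an unadjusted p under 0.05, counting both directions. With the TPM as deposited 23, 8, 8, 25 and 3 members passed as lower, and with vitellogenins removed 8, 4, 3, 7 and 1. Over all 9932 tested genes 4063 and 1728 were lower with these scalings, in that order. Single members were lower in females in 4 further lists: ndufa4 among 86 oxidative phosphorylation subunits, pros1 among 50 complement and coagulation genes, hp (ENSDARG00000095807) among 29 plasma proteins and irs2b among 18 insulin-like growth factor genes. Of 13 heat shock genes hsp90ab1 was higher (1.99 ± 0.32, adjusted p = 0.0187). Of 34 interferon and antigen presentation genes b2ml and irf9 were lower. The call of insig1 was lost without male BPAF replicate 2, female BPAF replicate 2 or female BPAF replicate 3 (adjusted p from 0.0609 to 0.103), and that of gck without any library except female BPAF replicate 1 (0.0728 to 0.154).

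Some genes known from the intestinal lining were lower in female than in male BPAF livers. The 18 tested intestine markers had a median difference of -2.72, with 5 lower in females and 0 higher, beside all-gene shares of 3.23 and 2.85%. The 5 were the acidic chitinase chia.1, the fatty acid binding protein fabp2, the metalloprotease mep1b, the glucose transporter slc5a1 and si:ch211-133l5.7. The 25 listed markers summed to 679, 460 and 390 TPM in female BPAF livers and to 3495, 1960 and 8918 TPM in male BPAF livers. Male BPAF replicate 3 was highest. Control livers summed to 309, 954 and 516 TPM in females against 1462, 1280 and 2621 TPM in males, so the male surplus was also present there with a smaller range. Of the lower genes, fabp2 had 21.08, 6.41 and 2.02 TPM in female BPAF livers against 238, 103 and 372 TPM in male BPAF livers. The groups did not overlap (difference -3.85 ± 0.72, adjusted p = 0.0266). With the TPM as deposited 17 were lower, with vitellogenins removed 15 and with quantile normalization 5. The count of 5 became 9 without female BPAF replicate 1, 2 without male BPAF replicate 1 or 3, and 0 without male BPAF replicate 2, female BPAF replicate 2 or female BPAF replicate 3. In bulk tissue, fewer cells of a type and less RNA per cell cannot be told apart.

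Some other genes with a large difference lower in females also had male BPAF replicate 3 highest, among them slc13a2, mbl2 and tmsb1. In contrast cyp2k22 and hsd17b3 had male BPAF replicate 2 highest. The citrate transporter slc13a2 had 7.56, 0.20 and 0.35 TPM in female BPAF livers against 76.2, 29.2 and 162 TPM in male BPAF livers (difference -4.26 ± 0.89, adjusted p = 0.0361). Its female BPAF replicate 1 was above the other two female libraries, as was that of chia.1 with 22.41, 0.16 and 0.30 TPM in female BPAF livers against 153, 97.3 and 466 TPM in male BPAF livers. The chia.1 call was narrow (difference -5.22 ± 1.21, adjusted p = 0.0486) and was lost without any library except female BPAF replicate 1, and the related chitinase copies may share its reads. The slc13a2 call was lost in the same leave-outs (limma adjusted p from 0.0601 to 0.146). The part of the intestine markers in these results was not tested.

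Of the other marker lists, few members passed. Of 41 listed testis and sperm markers 2 reached the rule, and both, cfap299 and meig1, were lower in females, with summed list levels of 3.73, 2.02 and 1.34 TPM in female BPAF livers against 38.1, 42.1 and 16.0 TPM in male BPAF livers. Of 27 skeletal muscle markers 3 reached the rule and 2 were lower in females, nmrk2 and myhb, with sums of 6.25, 0.72 and 2.84 TPM in female BPAF livers against 136, 37.4 and 50.5 TPM in male BPAF livers. With a sum of 0.72 TPM in female BPAF replicate 2, no muscle marker could enter the rule through the females alone. The female sums of the testis list were also low. The filter thus sets part of the direction in both lists, beside an all-gene share of 3.23% lower. In controls the testis list summed to 2.95, 3.1 and 1.47 TPM in females against 10.32, 5.66 and 7.15 TPM in males. The muscle list summed there to 1.08, 3.86 and 0.84 TPM in females against 12.75, 3.69 and 8.32 TPM in males. Of the tested members of both lists 0 passed in controls. Ovary and germline markers passed in 0 of 9 tested members with limma, while 4 were higher at an unadjusted p under 0.05 and also 4 with the TPM as deposited. They summed to 908, 46.5 and 97.6 TPM in female BPAF livers and to 122, 92.4 and 57.1 TPM in male BPAF livers. Control livers summed to 695.5, 321.8 and 129.5 TPM in females against 116.6, 56.9 and 128.7 TPM in males, and 3 of the 9 members were called higher in control females. Among the exposed females replicate 1 stood apart. The egg coat gene zp2.1 had 72.68, 1.65 and 4.21 TPM in female BPAF livers and was listed at 0 in the 3 male BPAF livers (adjusted p = 0.0820). Zona pellucida copies may share reads. Among 13 tested erythrocyte markers 1 (hbba2) was lower, and among 24 tested exocrine pancreas markers 1 (amy2a) was higher in females. The all-gene shares were 3.23% lower and 2.85% higher. With limma 0 members passed in the hepatocyte, biliary, endocrine pancreas, macrophage and leukocyte, endothelial, stellate and kidney lists. At an unadjusted p under 0.05 these 7 lists had 5, 5, 1, 6, 5, 7 and 5 members lower in females, in the same order. In addition 1 leukocyte marker was higher. Over all tested genes 2576 of 9932 reached an unadjusted p under 0.05, counting both directions. Hepatocyte markers were lower in 16 of 19 with the TPM as deposited and in 9 with quantile normalization. Over all 9932 tested genes 4063 and 259 were lower with these scalings, in that order. What part these markers have in the other results was not tested.

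**Figure D4:**
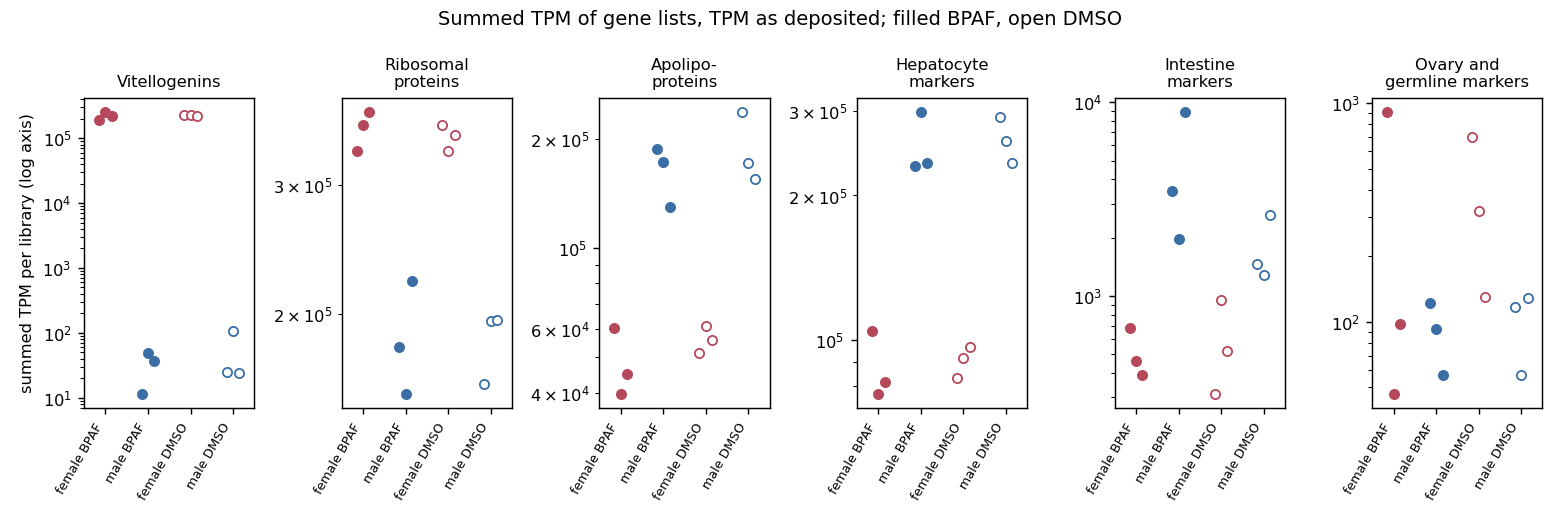
Summed deposited TPM of 6 gene lists per library (vertical axes, each a log axis) in female and male BPAF livers (filled) and female and male DMSO livers (open). Vitellogenins and ribosomal proteins are higher and apolipoproteins, hepatocyte markers and intestine markers lower in both female groups than in the male group beside them, and the ovary markers are highest in female BPAF replicate 1 at 908 TPM.

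Genes outside the lists also separated the sexes. The water channel gene aqp12 had 1672, 2082 and 2309 TPM in female BPAF livers and 435, 392 and 411 TPM in male BPAF livers. The male libraries were nearly equal, and the difference was 3.25 ± 0.30 (adjusted p = 0.00277). The glycerol channel gene aqp7 went the other way, with 0.50, 0.07 and 0.03 TPM in female BPAF livers against 14.12, 6.34 and 6.50 TPM in male BPAF livers (difference -2.51 ± 0.27, adjusted p = 0.00532). IYD, named after the iodotyrosine deiodinase that recovers iodide, had 59.23, 41.45 and 31.71 TPM in female BPAF livers against 0.42, 0.16 and 0.19 TPM in male BPAF livers (difference 5.7 ± 0.24, adjusted p = 1.90e-05). The gene eevs, an enzyme of sunscreen compound synthesis in fish, had 6.30, 6.94 and 5.92 TPM in female BPAF livers against 0, 0 and 0.11 TPM in male BPAF livers (difference 3.27 ± 0.22, adjusted p = 0.000352). These 4 genes were chosen after their values were seen, and each kept its call without every library in turn.

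Set beside the controls, more of the higher than of the lower calls in exposed livers were also called in control livers. The difference between these shares was not tested, and the filter sets part of it, as the rule rests on the BPAF libraries alone. Of the 321 lower calls, 173 entered through the male BPAF libraries with every female BPAF library under 1 TPM. Of the 283 higher calls, 34 entered through the females in that way. The shares of calls with the same sign carry the same limit. The control contrast used no library of the exposed one and called 329 genes higher (3.31%) and 338 lower (3.4%) in female than in male DMSO livers on the same 9932 genes. There were 198 genes higher in females in both contrasts, which is 70.0% of the exposed list and 60.2% of the control list. For genes lower in females the overlap was 104, or 32.4% of the exposed list and 30.8% of the control list. Of the exposed calls, 282 of 283 higher genes and 308 of 321 lower genes had the same sign in controls (99.6 and 96%), against 80.8% of all tested genes above 0 and 80.4% of those below 0 in exposed livers. Among the lower genes, cyp2k22 was called in both contrasts (-6.69 exposed, -7.11 control), as were tdo2b (-2.91 exposed, -3.17 control) and hsd17b3 (-3.90 exposed, -4.60 control). In contrast nmrk2 (-3.64 exposed, -0.57 control), apoa4a (-2.6 exposed, 0.17 control) and chia.1 (-5.22 exposed, -0.34 control) did not pass in controls. For ribosomal proteins 72 of 85 were higher in control females, and for intestine markers 0 of 18 passed in controls, with a median of -0.78.

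Whether the sex difference itself depended on BPAF was tested as an interaction over all 12 libraries. The genes tested were those of the rule, which the BPAF libraries alone set. Genes expressed in control livers but under the rule in exposed livers were thus not tested. With limma 0 of the 9932 genes passed, the smallest adjusted p was 0.723, and 262 genes had an unadjusted p under 0.05. The other 3 scalings also called 0 genes, with 348, 343 and 247 at an unadjusted p under 0.05 (TPM as deposited, vitellogenins removed, quantile). The intervals of single genes remained wide. For vtg1 the exposed minus control sex difference was 1.04 (95% interval -0.69 to 2.76). In males vtg1 had 6.47, 8.61 and 10.99 TPM in BPAF livers against 12.74, 48.57 and 5.92 TPM in DMSO livers, which overlapped. For esr1 the exposed and control differences were 4.85 and 4.61, with an interaction of 0.16 (-0.44 to 0.75). For nmrk2 the interaction was -3.03 (-5.18 to -0.87), for apoa4a -2.73 (-4.68 to -0.78) and for chia.1 -4.84 (-10.48 to 0.79). None of these 5 passed after adjustment, which does not show that the sexes responded alike.

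The genes with the smallest interaction p in each direction, named by rank and not passing, were smpdl3a, EIF3J, znf1096, CT990561.1 and AL929108.1 on the positive side, and ncam1a, CR788316.1, si:ch73-167f10.1, CU928063.1 and si:ch211-160o17.3 on the negative side. Of these CR788316.1, annotated as verrucotoxin subunit beta-like, had 0.14, 0.03 and 0.03 TPM in female BPAF livers against 5.74, 6.06 and 6.53 TPM in male BPAF livers. It differed between the sexes in exposed livers (-2.31 ± 0.23, adjusted p = 0.00384) and had a control difference of -0.05 (adjusted p = 0.944). It entered the rule through the male BPAF libraries alone, and its interaction of -2.21 did not pass. The sphingomyelinase-like gene smpdl3a had the opposite pattern, with a control difference of -5.02 and an exposed difference of -0.58 that did not pass (adjusted p = 0.617).

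**Figure D5:**
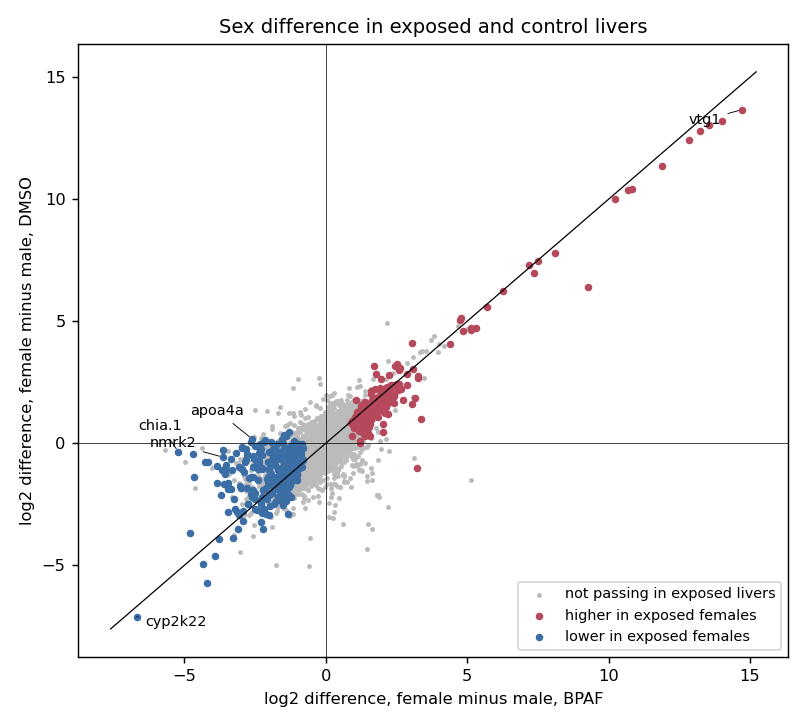
Log2 difference of female minus male in BPAF livers (horizontal axis) against the same difference in DMSO livers (vertical axis), 1 point per tested gene, with genes called in exposed livers coloured and a line of equality. Of the 283 genes higher in exposed females 282 are above 0 on the control axis too, while chia.1, nmrk2 and apoa4a lie near 0 on the control axis.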

How the data were processed

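RNA-seq of liver was analysed from the deposited table, whose values were taken as TPM made by the authors: the header names no unit, and the listed genes of a library sum to between 978505 and 992375. HISAT2 2.1.0, Cufflinks and RSEM are named per the submitters' processing notes, without role or order, and the sources used here name no genome build. RNA was isolated with TRIzol and libraries prepared with a TruSeq kit, per the labels' protocols. The columns of group means are the authors' and were not used.

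Genes at 1 TPM or more in at least 3 of the 6 BPAF libraries were kept. Each library was divided by a factor from the mean, trimmed by 30% at each end, of its log2 ratios to the geometric mean over 5886 genes at 1 TPM or more in all 6 libraries, vitellogenins left out. The factors were 0.830, 0.668 and 0.656 in female BPAF and 1.784, 1.256 and 1.221 in male BPAF libraries. Values were tested as log2(scaled TPM + 1) by the moderated linear model of limma 3.58.1 (R 4.3.3) with a variance trend and 4 residual degrees of freedom, at a Benjamini-Hochberg adjusted p under 0.05 over all tested genes. The interaction used all 12 libraries with 8 residual degrees of freedom. Single values were compared with exact 2-sided permutation tests. The fits were tested on simulated data.

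There were 24 programme lists and 13 marker lists. The members and lists were chosen with earlier results of these data known, so counts of list members are descriptions. Named genes are up to 12 per direction with the largest difference among called genes with a descriptive symbol and groups that do not overlap, a panel of liver and estrogen genes, up to 4 members per list, and 5 per direction for the interaction. Some are given only by their list's count, and genes outside the rule are marked or belong to a list's count. Symbols come from the deposited table, where 561 have several identifiers. The main fits did not pair samples by replicate number, and the labels do not say whether the numbers pair them. Promoter motifs were not analysed here, and some named genes are not reported here.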

Additional observations from a re-analysis of the deposited data

How the results depend on the processing

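Against 283 genes higher and 321 lower in females (604 in all), the TPM as deposited gave 187 and 4063 (4250), vitellogenins removed gave 1728 lower (1936), no filter gave 39 and 21 (60), a pseudocount of 5 gave 209 lower, and all 12 libraries in 1 model gave 510 lower. Leaving out 1 library gave 36 to 333 higher, 23 to 310 lower and 59 to 643 in all. The replicate block gave 203 higher and 126 lower (329). Its pairing rests on a shared number only: deviations of same-numbered libraries correlated at 0.0573, 0.185 and 0.069, and each library correlated best with its own number, a hint from the data and not the design. For controls, 2467 genes passed with the TPM as deposited, against 667. Among genes named by rule, values that changed sign belonged to genes that did not pass: cyp7a1 was -0.26 with the TPM as deposited and ran from -0.97 to 1.75 with 1 library left out, cpt1aa was -0.37 with the TPM as deposited and -0.081 with vitellogenins removed, and sst1.1 ran from -1.57 to 0.28 with 1 library left out. The cause was not tested, beyond the scaling's own construction. No gene of the 604 changed sign with the TPM as deposited, with vitellogenins removed or without any single library, and 4 did with quantile normalization (rps21, rps24, rpl29 and slc25a5). Under every alternative tried, 26 genes stayed higher and 12 lower in females. A gene that an alternative did not test, as with a filter at 5 TPM, was left out of these counts. Depth is unknown, which limits statements on low genes.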

Other observations

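Beyond the described lists, members of 2 further families of protein synthesis and folding, chosen after their values were seen and given without a test, stood on the higher side in female BPAF livers. Cytosolic aminoacyl-tRNA synthetases, which charge tRNAs with amino acids, had 5 of 16 members higher and 0 lower than in male BPAF livers, with a median difference of 0.90 and a range of 0.11 to 2.16. The largest difference was that of iars1, and 1 of the 16 was higher with the TPM as deposited. Chaperonin subunits, which fold actin and tubulin, had 5 of 9 identifiers higher and 0 lower, with a median of 1.25, and 1 was higher with the TPM as deposited. In controls 4 synthetases and 1 chaperonin subunit passed. The all-gene shares in exposed livers were 2.85% higher and 3.23% lower in females.

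Several genes were listed at 0 in every BPAF library of 1 sex. Of the 9932 tested genes, 30 were at 0 in the 3 female BPAF livers and at 1 TPM or more in each male BPAF liver, and 21 the other way round. All of them entered the rule through 1 sex. They are part of the 945 genes that entered through the males alone and the 51 that entered through the females alone, so the filter sets part of these counts. The calcium sensor gene vsnl1b was at 0 in the 3 female BPAF livers against 12.85, 11.27 and 14.44 TPM in male BPAF livers, with 11.36, 0 and 4.86 TPM in female DMSO livers against 50.5, 0 and 12.71 TPM in male DMSO livers. The class I gene mhc1lfa was at 0 in the 3 female BPAF livers against 9.76, 8.96 and 5.51 TPM in male BPAF livers. In controls mhc1lfa had 0, 23.86 and 0 TPM in female DMSO livers against 11.61, 12.85 and 5.1 TPM in male DMSO livers. With all 12 libraries in 1 model neither vsnl1b nor mhc1lfa passed (limma adjusted p = 0.0988 and 0.113).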
